A study of Mus musculus with 8 samples.

Results

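Nkx2-1, Foxa1, Foxa2, Sox2, Sox9, Hmga2, Krt8, Krt18, Krt19 and Cldn4 are genes whose products set or mark the identity of lung epithelial cells: 6 regulators of lung lineage and of fetal and distal progenitor states, 3 keratins and 1 claudin. They were chosen by name, and all 10 were found among the 54532 genes of the count table. Of these, 9 passed the filter on low counts, as did 17138 genes in all, and Hmga2 did not. The data are whole-lung mRNA sequencing of 8 CC-LR mice, 4 labelled Control and 4 labelled TTI-101, with 1 library per mouse. TTI-101 is a small molecule that inhibits STAT3, a transcription factor that cytokine receptors activate. All mice were 14 weeks old and carried lung tumors driven by mutant K-ras, and the TTI-101 mice had received 4 weeks of treatment.

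In CC-LR mice, Cre is expressed from the club cell secretory protein gene (Scgb1a1) and switches on K-ras G12D, so the oncogene is driven from the airway secretory lineage and both groups carry it. Neither the route nor the vehicle given to these 8 mice is stated in the labels, which also do not say whether the Control mice received a vehicle, and the sex of each mouse is not given. The libraries held 16075855 to 26873509 counted reads. Control mouse 4 stood apart on the first principal component, which held 45.2% of the variance, at 101.1 against -39.3 to 17.9 in the other 7 mice. Mitochondrial genes took 5.56% of its reads, against 2.01 to 2.85% elsewhere. Values without it are given beside many of the main results. The lung label was borne out by the defining markers, since the summed level of 8 alveolar type II (AT2) markers was 32828 to 74083 in counts-per-million units (CPM, library sizes scaled by TMM) in every library.

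Nkx2-1 is the homeodomain factor that specifies lung and thyroid from the foregut and maintains surfactant expression, and it acts in the lung together with the forkhead factors Foxa1 and Foxa2. Sox2 marks the proximal airway lineage and Sox9 the distal tip of the branching lung bud, while Hmga2 is a chromatin protein of embryonic tissue that is re-expressed in advanced lung tumors. Krt8 and Krt18 are partner intermediate filament proteins of simple epithelia, and Krt8, Krt18, Krt19 and the tight junction protein Cldn4 are raised in the transitional state that alveolar cells pass through during repair and in K-ras-driven tumors.

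The starts of 3 of the genes are shown because the keratin partners lie near each other and were the most closely correlated pair of the set, and because Cldn4 was the member whose promoter held the AP-1 motif TGANTCA. Each sequence is the RefSeq promoter in GRCm38.p6, 250 bases before to 50 after the RefSeq start. That start is the start of the counted gene model for Cldn4, and lies 140 bases downstream of it for Krt8 and 36 bases downstream for Krt18. Krt8 lies on the minus strand at chr15:102004293-102004592, Krt18 on the plus strand at chr15:102027966-102028265 and Cldn4 on the minus strand at chr5:134946885-134947184. Capitals mark overlapping matches to TATAAA on both strands in Krt8, and TGANTCA and GGGCGG (read on either strand) in Cldn4, while Krt18 held no searched motif.
Krt8: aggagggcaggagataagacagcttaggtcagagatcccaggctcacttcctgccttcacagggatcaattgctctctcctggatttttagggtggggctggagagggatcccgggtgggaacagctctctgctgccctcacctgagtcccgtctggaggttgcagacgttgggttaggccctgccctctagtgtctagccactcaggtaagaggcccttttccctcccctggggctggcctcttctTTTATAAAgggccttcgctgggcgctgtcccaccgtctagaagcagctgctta
Krt18: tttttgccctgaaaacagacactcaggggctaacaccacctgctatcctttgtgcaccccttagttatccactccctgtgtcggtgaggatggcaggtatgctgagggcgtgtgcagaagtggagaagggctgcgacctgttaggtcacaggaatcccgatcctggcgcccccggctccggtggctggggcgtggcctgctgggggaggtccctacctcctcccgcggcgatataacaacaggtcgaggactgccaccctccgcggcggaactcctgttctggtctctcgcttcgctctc
Cldn4: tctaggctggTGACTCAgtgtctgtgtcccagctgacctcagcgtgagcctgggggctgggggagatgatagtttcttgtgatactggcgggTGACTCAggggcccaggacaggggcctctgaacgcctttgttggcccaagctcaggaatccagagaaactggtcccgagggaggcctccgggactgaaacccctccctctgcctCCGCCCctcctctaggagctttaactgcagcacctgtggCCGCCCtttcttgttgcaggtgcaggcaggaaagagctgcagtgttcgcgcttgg

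In all, 10 promoters of 8 of the genes were matched, with more than one for Foxa2. The STAT motif TTCNNNGAA was in 0 of the 10 and in 8.30% of the 32851 mouse promoters searched on both strands. TGANTCA was found in 1 of the 10 and in 7.81% of all promoters, at positions -240 and -158 from the RefSeq start of Cldn4. GGGCGG was in 8 of 10 against 35.7% of all, and TATAAA in 2 of 10 against 13.6%. Every Foxa2 promoter held GGGCGG, and TATAAA was in Krt8 and in a Foxa2 promoter. These counts are thus of promoters, not of separate genes. A match is a run of letters and was not tested for binding.

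All 9 genes that passed the filter had a lower mean level in the TTI-101 mice, and none was past an adjusted p of 0.05 (edgeR quasi-likelihood test, Benjamini-Hochberg over 17138 genes). Among all genes tested 49.4% had a log2 fold change below 0, 0% passed the adjusted threshold and 6.61% were at an unadjusted p under 0.05, with 3.58% lower and 3.02% higher in the TTI-101 mice. Sox2, Krt8 and Krt18, 3 of the 9, were lower at that unadjusted threshold, and none was when control mouse 4 or any one of TTI-101 mice 1, 3 and 4 was left out. The share of all genes lower at that threshold was 1.11% without control mouse 4, and 1.81, 1.39 and 2.10% without TTI-101 mouse 1, 3 and 4. DESeq2, which also tested Hmga2, put 6 of the 10 lower at an unadjusted p under 0.05, where 2.69% of the 31769 genes it tested were lower. After adjustment DESeq2 called none of the 10 and 4 genes in all, or 0.0126%. The median log2 fold change of the 9 was -0.71, beside 0.00 for all genes tested. For none of the 9 did the groups separate, while 1.43% of all genes were lower and 1.52% higher in every TTI-101 mouse than in every control. The highest library of 9 of the 10 was control mouse 4, and of the treated mice TTI-101 mouse 2 was highest for 7 of the 10. In whole lung, fewer cells of a type and less RNA per cell cannot be told apart.

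**Figure D1:**
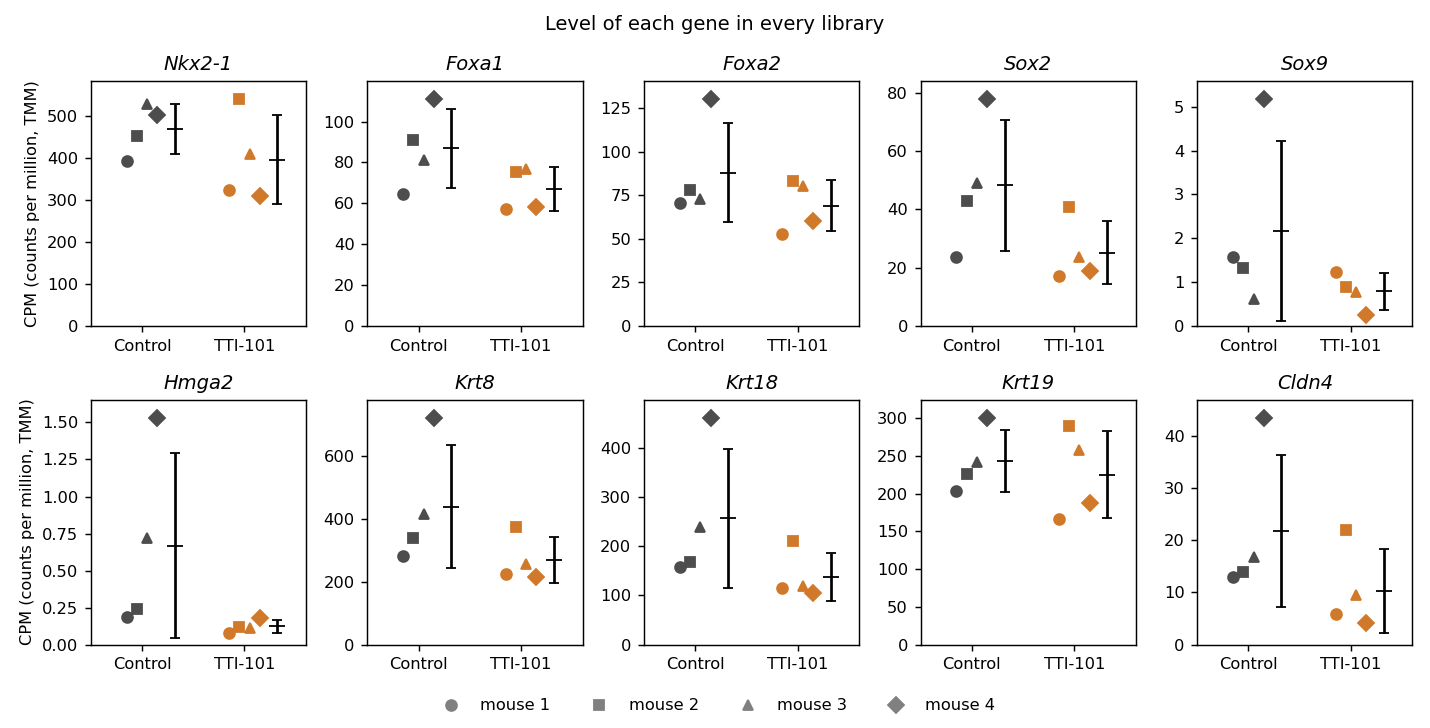
Level of each of the 10 genes in CPM in every library, on axes that start at 0, with the group mean ± SD beside the 4 Control and 4 TTI-101 mice and a marker shape for each mouse number. Control mouse 4 is the highest library in 9 of the 10 panels, and the groups overlap in all panels but that of Hmga2.

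Nkx2-1 (ENSMUSG00000001496, chr12:56531958-56536908 in GRCm38, minus strand) was at 393, 452, 529.7 and 503 CPM in the control mice and at 323, 540.4, 409.8 and 310.4 CPM in the TTI-101 mice. The highest library was TTI-101 mouse 2 and the lowest TTI-101 mouse 4, so the groups overlapped widely. The mean was 469.5 ± 60.3 (SD, n = 4) in control and 396 ± 106 (n = 4) in TTI-101 mice, a log2 fold change of -0.25 (SE 0.20, edgeR unadjusted p = 0.253, adjusted p = 0.722). Without control mouse 4 the log2 fold change was -0.20 (edgeR unadjusted p = 0.359).

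Foxa1 (ENSMUSG00000035451, chr12:57540628-57546916, minus strand), a forkhead pioneer factor, had levels of 64.3, 91.0, 81.4 and 111 CPM in control and 57.3, 75.5, 76.8 and 58.1 CPM in TTI-101 mice. The 4 treated values lay below 3 of the 4 controls, with control mouse 1 inside their range. The log2 fold change was -0.38 (SE 0.18, edgeR unadjusted p = 0.0681, adjusted p = 0.657) and was -0.23 without control mouse 4. Foxa2 (ENSMUSG00000037025, chr2:148042877-148046969, minus strand), its paralog, was measured at 70.6, 78.1, 73.2 and 130.3 CPM in control and 53.1, 83.1, 80.3 and 60.2 CPM in TTI-101 mice. Apart from control mouse 4 the control values lay within the treated range. Its log2 fold change was -0.35 (SE 0.23, edgeR unadjusted p = 0.158, adjusted p = 0.674) and was -0.09 without control mouse 4.

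Sox2 (ENSMUSG00000074637, chr3:34650405-34652461, plus strand) gave 23.6, 42.7, 49.0 and 77.7 CPM in control and 17.0, 40.7, 23.8 and 18.8 CPM in TTI-101 mice. Of the treated mice, 3 lay near or below the lowest control and TTI-101 mouse 2 lay among the controls. The mean was 48.2 ± 22.4 (SD, n = 4) in control and 25.1 ± 10.8 (n = 4) in TTI-101 mice, a log2 fold change of -0.94 (SE 0.37, edgeR unadjusted p = 0.0265, adjusted p = 0.657). The value was -0.61 without control mouse 4 (edgeR unadjusted p = 0.0916) and -1.27 without TTI-101 mouse 2 (edgeR unadjusted p = 0.0044). The long noncoding gene Sox2ot, which contains Sox2 on the same strand, had 6 to 33 reads per library and a log2 fold change of -0.87 (edgeR unadjusted p = 0.0899).

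Sox9 (ENSMUSG00000000567, chr11:112782224-112787760, plus strand) was rare, with 43, 22, 11 and 81 reads in control and 33, 15, 14 and 4 reads in TTI-101 mice. These correspond to 1.57, 1.31, 0.609 and 5.17 CPM in control and 1.24, 0.899, 0.777 and 0.243 CPM in TTI-101 mice. Control mouse 4 was highest and TTI-101 mouse 4 lowest, and control mouse 3 lay below 3 of the treated mice. The log2 fold change was -1.41 (SE 0.67, edgeR unadjusted p = 0.0588, adjusted p = 0.657), and -0.54 without control mouse 4. Sox9 also marks cartilage cells, and the summed level of 7 chondrocyte markers was 1.16 to 2.43 CPM in control and 1.22 to 4.55 CPM in TTI-101 mice, with Col2a1 at 0 to 4 reads in control and 1 to 43 in TTI-101 mice. Only 2 of the 7 passed the filter. Comp, at 1 to 7 reads in control and 10 to 18 in TTI-101 mice, had a log2 fold change of 1.85 (edgeR unadjusted p = 0.00489, adjusted p = 0.657). Hapln1 was at -0.38 (edgeR unadjusted p = 0.520). The part of cartilage cells in the Sox9 level was not tested.

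Hmga2 (ENSMUSG00000056758, chr10:120361275-120476469, minus strand) had 5, 4, 13 and 24 reads in control and 2, 2, 2 and 3 reads in TTI-101 mice, and was not in the fit over all genes. Its CPM levels did not overlap, although control mouse 1 at 0.183 and TTI-101 mouse 4 at 0.182 CPM were nearly equal. Summed over libraries the control rate was 5.11 times the treated rate (95% counting interval 2.47 to 11.9, counting error only), on 46 and 9 reads. Of the control reads 24 came from control mouse 4, and without it the ratio was 3.06 (95% counting interval 1.35 to 7.55), on 22 and 9 reads. The exact two-sided permutation p of its log2 CPM (n = 4 per group) was 0.0286, the smallest that 4 against 4 can give, and 0.0571 on library totals, and DESeq2 gave an unadjusted p of 0.00798 and an adjusted p of 0.762. The exact permutation p was 0.0857 to 0.114 when any one TTI-101 mouse was left out. Every treated library was at or under 3 reads, so its level in these mice was at the limit of what this depth can measure.

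Krt8 (ENSMUSG00000049382, chr15:101996698-102004482, minus strand) was at 282, 337, 416 and 722 CPM in control and at 224, 376, 257 and 216 CPM in TTI-101 mice. The 3 lowest libraries were treated, and TTI-101 mouse 2 lay between control mice 2 and 3. The mean was 439 ± 196 (SD, n = 4) in control and 268 ± 73.8 (n = 4) in TTI-101 mice, a log2 fold change of -0.71 (SE 0.30, edgeR unadjusted p = 0.0377, adjusted p = 0.657).

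Krt18 (ENSMUSG00000023043, chr15:102028180-102032027, plus strand), its filament partner, was at 158, 167, 240.4 and 463 CPM in control and at 115, 210.3, 119 and 106 CPM in TTI-101 mice. The same 3 treated libraries were lowest, TTI-101 mouse 2 again lay among the controls, and control mouse 4 was highest. The mean was 257 ± 142 (SD, n = 4) in control and 137 ± 48.9 (n = 4) in TTI-101 mice, a log2 fold change of -0.90 (SE 0.36, edgeR unadjusted p = 0.0286, adjusted p = 0.657). Without control mouse 4 the log2 fold changes were -0.35 for Krt8 (edgeR unadjusted p = 0.135) and -0.45 for Krt18 (edgeR unadjusted p = 0.107), and without TTI-101 mouse 2 they were -0.91 and -1.17.

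Krt19 (ENSMUSG00000020911, chr11:100140810-100148665, minus strand), a keratin of simple epithelia and also of mesothelium, gave 203, 226, 241 and 300.5 CPM in control and 167, 289, 258 and 187 CPM in TTI-101 mice. The groups overlapped throughout. Its log2 fold change was -0.11 (SE 0.21, edgeR unadjusted p = 0.606, adjusted p = 0.883) and turned to 0.02 without control mouse 4. The other 5 mesothelial markers summed to 20.4 to 213 CPM in control, lowest in control mouse 4, and to 148 to 281 CPM in TTI-101 mice, and all 5 had a log2 fold change above 0 with a median of 0.69. All 6 mesothelial markers, Krt19 included, were above 0 without control mouse 4, with a median of 0.30. The part of mesothelium in the Krt19 level was not tested.

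Cldn4 (ENSMUSG00000047501, chr5:134945119-134946934, minus strand) was at 13.0, 14.0, 16.8 and 43.5 CPM in control and at 5.76, 21.9, 9.49 and 4.19 CPM in TTI-101 mice. Of the treated mice 3 lay below every control, and TTI-101 mouse 2 lay above 3 of the controls. The log2 fold change was -1.08 (SE 0.54, edgeR unadjusted p = 0.0741, adjusted p = 0.657), or -0.50 without control mouse 4 and -1.74 without TTI-101 mouse 2 (edgeR unadjusted p = 0.0043).

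**Figure D2:**
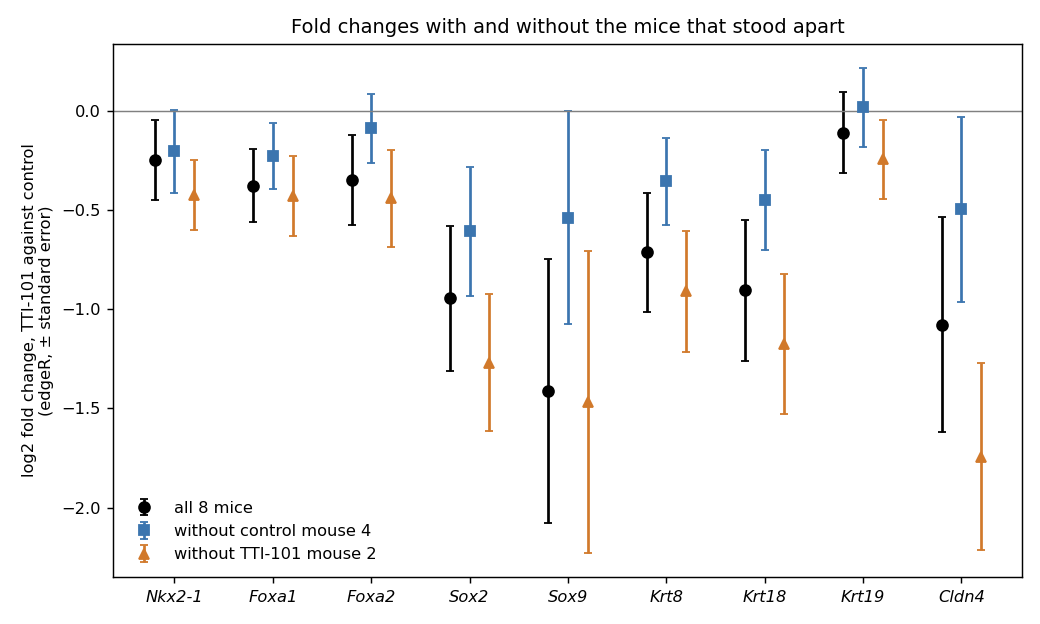
The log2 fold change of TTI-101 against control mice from edgeR, ± SE, for the 9 genes that passed the filter, in all 8 mice, without control mouse 4 and without TTI-101 mouse 2. Without control mouse 4 most values move toward 0, and Krt19 turns to 0.02, while without TTI-101 mouse 2 Cldn4 reaches -1.74.

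Per kilobase of gene model, the mean level over the 8 mice was highest for Krt8 at 181 CPM per kilobase, followed by Nkx2-1 at 152, Krt18 at 137 and Krt19 at 126. Foxa2 at 33.2, Foxa1 at 23.1, Sox2 at 17.8 and Cldn4 at 8.85 CPM per kilobase came next, and Sox9 at 0.358 and Hmga2 at 0.0584 were last. The ranges over mice separated Krt19 from Foxa2 and Cldn4 from Sox9, whereas the other neighbours in this order overlapped. Krt8 exceeded Nkx2-1 in 7 of 8 libraries, and Krt18 exceeded Krt19 in 3 of 8.

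Ratios within a library do not depend on its scaling apart from the prior count of 2. Krt19 minus Krt8 on the log2 CPM scale was -0.47, -0.58, -0.79 and -1.26 in control and -0.42, -0.38, 0.00 and -0.21 in TTI-101 mice. Every treated mouse was above every control. The means were -0.77 ± 0.35 and -0.25 ± 0.19 (SD, n = 4 each), a difference of 0.52 with an exact two-sided permutation p of 0.0286 and an adjusted p of 0.171 over the 6 ratios. Of all other genes tested, 6.46% were likewise separated upward against Krt8 and 0.0584% downward. Without control mouse 4 the difference was 0.36 (exact permutation p = 0.0571). Leaving out any one TTI-101 mouse gave 0.44 to 0.58, with the p above 0.05 in each case (exact permutation p = 0.0571 to 0.0857).

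The ratio of the filament partners, Krt8 minus Krt18, was 0.82 ± 0.15 in control and 0.98 ± 0.12 in TTI-101 mice (exact permutation p = 0.143, adjusted p = 0.286). Sox2 minus Nkx2-1 was -3.40 ± 0.56 in control and -4.03 ± 0.22 in TTI-101 mice, a difference of -0.63 (exact permutation p = 0.0857), or -0.40 without control mouse 4 and -0.85 without control mouse 1 (exact permutation p = 0.0286). Cldn4 minus Krt8 differed by -0.52 (exact permutation p = 0.2), or by -0.28 without TTI-101 mouse 4 and -0.80 without TTI-101 mouse 2 (exact permutation p = 0.429 and 0.0286). Sox9 minus Nkx2-1 differed by -0.84 (exact permutation p = 0.286, and -0.34 without control mouse 4) and Foxa1 minus Foxa2 by -0.04 (exact permutation p = 0.771). None of the 6 ratios was past an adjusted p of 0.05.

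**Figure D3:**
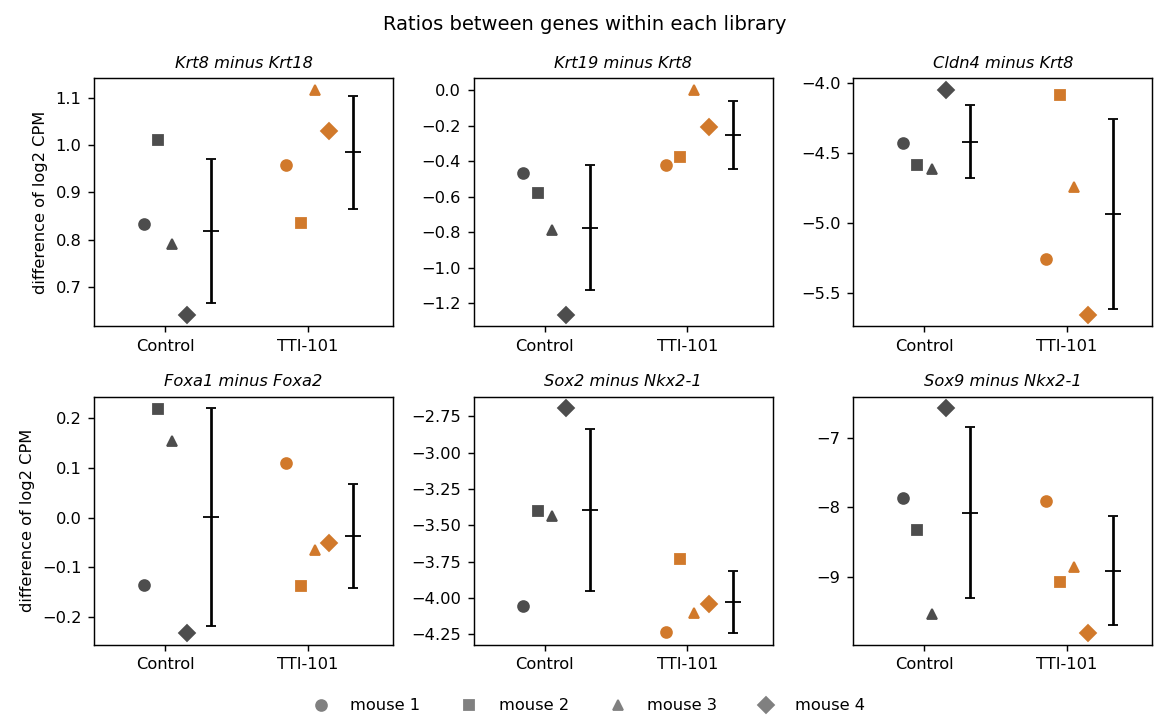
Within-library differences of log2 CPM for 6 pairs of genes, with 4 Control and 4 TTI-101 mice per panel and the group mean ± SD. The groups are separate for Krt19 minus Krt8, where all treated mice are above the highest control at -0.47, and overlap in the other 5 panels.

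Of 15 simple and tight-junction epithelial genes 14 had a log2 fold change below 0, with a median of -0.51, and 6 were lower at an unadjusted p under 0.05, namely Epcam, Cdh1, Esrp1, Grhl2, Ehf and Spint1. Cdh1, the adherens junction cadherin, was 572 ± 199 CPM in control and 389 ± 71.4 CPM in TTI-101 mice (SD, n = 4 each; log2 fold change -0.56, edgeR unadjusted p = 0.0414). Spint2, a serine protease inhibitor, had a log2 fold change of -0.30 (edgeR unadjusted p = 0.295). The mean log2 CPM of the list was 6.87 ± 0.40 in control and 6.44 ± 0.32 in TTI-101 mice, a difference of -0.44 (exact permutation p = 0.143). Without control mouse 4 the control mean was 6.68 ± 0.17 and the difference -0.25 (exact permutation p = 0.314). Then 12 of the 15 had a log2 fold change below 0, with a median of -0.26, Cdh1 was at -0.27 and Spint2 at -0.15, and 0 were at an unadjusted p under 0.05 in edgeR. The count at that threshold was also 0 without TTI-101 mouse 1, 3 or 4, 4 without control mouse 3, and 11 without TTI-101 mouse 2. Of all genes, 3.58% were lower at that threshold in all 8 mice and 1.11% without control mouse 4. This share was 1.81, 1.39 and 2.10% without TTI-101 mouse 1, 3 and 4, 2.89% without control mouse 3 and 7.62% without TTI-101 mouse 2.

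Set against that mean in the same library, the difference between groups was 0.16 for Nkx2-1, 0.07 for Foxa1 and 0.11 for Foxa2 on the log2 scale (exact permutation p = 0.486, 0.629 and 0.514). It was -0.22 for Krt8 (exact permutation p = 0.114), -0.38 for Krt18 and -0.47 for Sox2 (exact permutation p = 0.0857 for both). It was 0.30 for Krt19 (exact permutation p = 0.0571), -0.68 for Sox9 and -0.73 for Cldn4 (exact permutation p = 0.371 and 0.2). None of these passed 0.05. Without control mouse 4 the differences were 0.0083 for Nkx2-1, 0.0094 for Foxa1 and 0.13 for Foxa2, -0.14 for Krt8, -0.24 for Krt18, -0.39 for Sox2, 0.22 for Krt19, -0.33 for Sox9 and -0.53 for Cldn4.

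**Figure D4:**
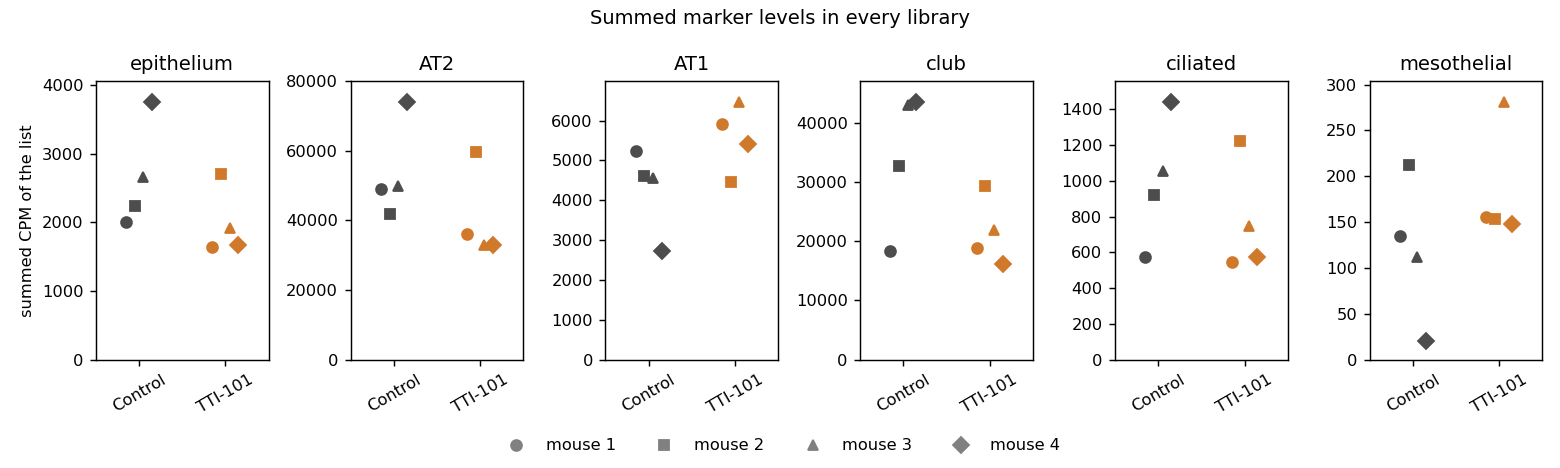
Summed CPM of marker lists for epithelium and for AT2, AT1, club, ciliated and mesothelial cells (Krt19 left out of the last) in each of the 4 Control and 4 TTI-101 libraries, on axes from 0. Control mouse 4 is highest for epithelium, AT2, club and ciliated markers and lowest for AT1 and mesothelial markers.

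Across the 8 mice, log2 CPM of the 9 genes was positively correlated in all 36 pairs, and 27 pairs had a Pearson permutation p under 0.05 after adjustment over the 36, or 13 without control mouse 4. Pairs of other genes were not counted in this way, so these counts do not set the 9 genes apart. The closest pair was Krt8 and Krt18 (r = 0.992, exact permutation p = 2.48e-05, adjusted p = 0.000893, and rho = 1.000, exact permutation p = 4.96e-05). After removal of each group's mean r was 0.988, without control mouse 4 it was 0.978, and without the 2 mice farthest from the median of Krt8 it was 0.971. Their gene bodies are separated by 23697 bases. Sox2 and Krt8 gave r = 0.967 and rho = 0.929 (exact permutation p = 0.000198 and 0.00223, adjusted p = 0.00179 and 0.0115), and r was 0.965 without the 2 farthest mice. Foxa2 and Krt19 gave r = 0.887 and rho = 0.976 (exact permutation p = 0.00117 and 0.000397, adjusted p = 0.00525 and 0.00357), and r was 0.899 without the 2 farthest mice.

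Sox9 stood apart. With Krt8 it gave r = 0.701 and rho = 0.429 (exact permutation p = 0.067 and 0.299, adjusted p = 0.0753 and 0.347), and r was -0.49 without the 2 farthest mice, so that relation rests on those mice. Its r with the other 8 genes was 0.38 to 0.73 in all mice and 0.02 to 0.45 without control mouse 4.

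**Figure D5:**
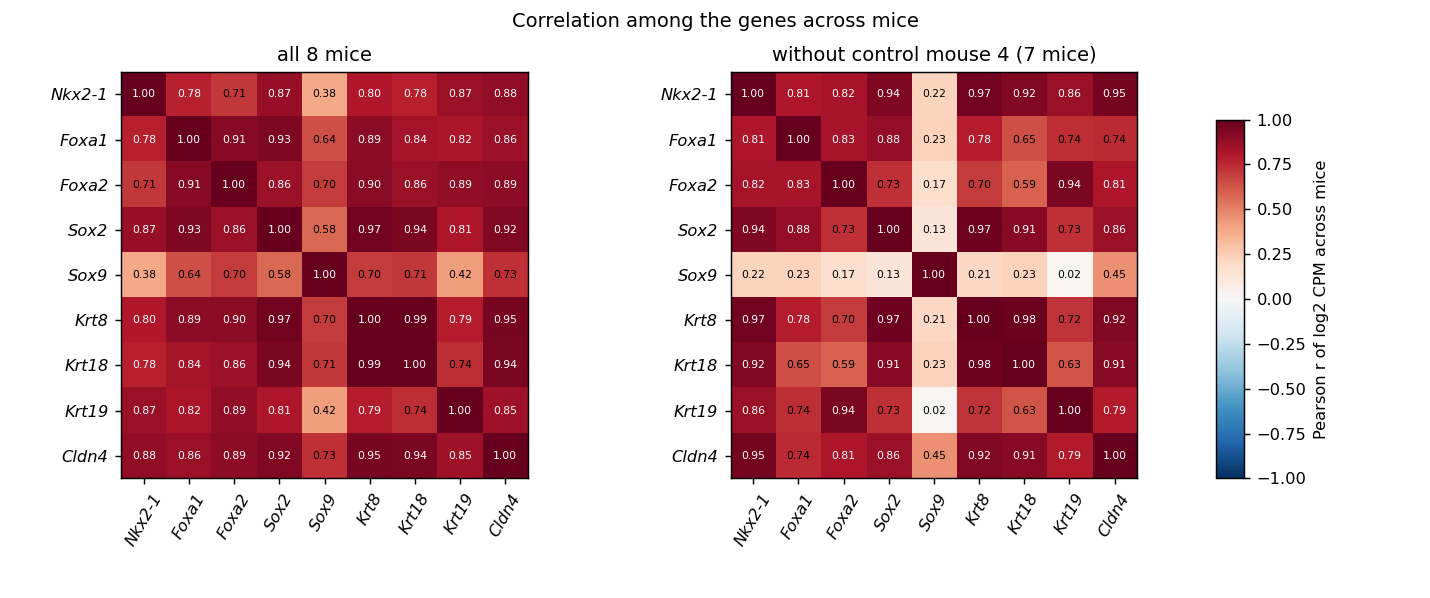
Pearson r of log2 CPM across mice for every pair of the 9 genes that passed the filter, in all 8 mice and in the 7 without control mouse 4, with colour from -1 to 1. Krt8 and Krt18 are the closest pair at 0.99 and 0.98, and the row of Sox9 is the palest in both panels.

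Among 15907 other genes with a mean of at least 1 CPM, those most like each gene by Pearson r of log2 CPM over the 8 mice are given as a description, with r without control mouse 4 second. For Nkx2-1 these were Ribc1 (0.990 and 0.989), Tmem138 (0.987 and 0.989) and Enkd1 (0.982 and 0.984). Sox2 was closest to Rps27l (0.997 and 0.995), Gm26671 and Gpx8 (both 0.992 and 0.987). Krt8 was closest to 1700030J22Rik (0.993 and 0.980), Ap1m2 (0.991 and 0.985) and Mgst1 (0.991 and 0.979), and Sox9 to Spry2 (0.973 and 0.931), Sfrp4 (0.965 and 0.932) and Cldn8 (0.959 and 0.907). The mice share their libraries' composition across all these genes.

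Genes tied to the members were described by count. None of any list passed an adjusted p of 0.05, and the median of all genes tested was 0.00. For the lists that follow, the matching share of all genes lower at an unadjusted p under 0.05 was 3.58%, or 1.11% without control mouse 4. Of 13 alveolar genes bound by Nkx2-1, 9 were lower and 4 higher by value, none at an unadjusted p under 0.05, with a median log2 fold change of -0.40. That median was -0.19 without control mouse 4. The surfactant protein genes Sftpc and Sftpb were at -0.40 and -0.52 (edgeR unadjusted p = 0.228 and 0.0969). Of 17 other lung epithelial transcription factors 12 were lower and 5 higher, with a median of -0.13, and Elf5, Klf5 and Spdef were lower at an unadjusted p under 0.05, whereas 0 were without control mouse 4. Cebpa, a factor of AT2 maturation, was at -0.48 and Hopx, an AT1 homeodomain protein, at 0.39 (edgeR unadjusted p = 0.0983 and 0.187), or at -0.13 and 0.19 without control mouse 4.

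Of 13 airway genes of the Sox2 domain 7 were lower and 6 higher, with a median of -0.42. The secretory protein gene Scgb1a1, at -0.75, and the carbonyl reductase gene Cbr2, at -0.71, were lower at an unadjusted p under 0.05 (edgeR unadjusted p = 0.045 and 0.0356). Of these Cbr2 was still under 0.05 without control mouse 4. The median of the 13 turned to 0.37 without control mouse 2 and was -1.01 without TTI-101 mouse 2. Of 20 transitional-state genes 12 were lower and 8 higher, with a median of -0.13. Clu, which encodes a secreted chaperone, at -0.90 (edgeR unadjusted p = 0.0271), and Areg, an EGFR ligand, at -1.23 (edgeR unadjusted p = 0.0285), were lower at that threshold, and Krt7, another simple keratin, was at -0.22 (edgeR unadjusted p = 0.238). None of the 20 was at that threshold in edgeR without control mouse 4, and the median was then -0.013.

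Of the gastric and hindgut genes that appear after loss of Nkx2-1, 10 of 17 were tested, 9 lower and 1 higher, with a median of -0.68, and Hnf4a, Gkn2 and Vil1 were lower at an unadjusted p under 0.05, with Gkn2 left at it without control mouse 4. Pigr, the polymeric immunoglobulin receptor, was at -0.64 (edgeR unadjusted p = 0.0988). Of 13 embryonic and high-plasticity genes 8 were lower and 5 higher, with a median of -0.17, and Etv4 and Kng2 were lower at that threshold, with Kng2 left at it without control mouse 4. Id2, an inhibitor of basic helix-loop-helix factors, was at -0.35 and Tspan1, a tetraspanin, at -0.51 (edgeR unadjusted p = 0.0528 and 0.0772).

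Marker levels of cell types varied between libraries as well. Club markers summed to 18415 to 43624 CPM in control and 16115 to 29312 in TTI-101 mice, and ciliated markers to 575 to 1442 and 545 to 1222 CPM. AT1 markers summed to 2730 to 5241 CPM in control and 4453 to 6475 in TTI-101 mice, and AT2 markers to 41957 to 74083 and 32828 to 59567 CPM. By value, 9 of 9 ciliated, 5 of 6 club and 7 of 8 AT2 markers had a log2 fold change below 0. Above 0 were 7 of 8 AT1 markers. Without control mouse 4 these counts were 8, 5, 7 and 6. Among all genes tested 49.4% were below 0 in all 8 mice. Basal markers were low, at 2.81 to 18.6 and 2.43 to 25.6 CPM, as were neuroendocrine markers at 11.5 to 25.0 and 11.7 to 26.6 CPM. Glial markers, which bear on Sox2, were at 13.5 to 25.0 and 10.1 to 27.5 CPM. Thyroid markers, which bear on Nkx2-1, were at 0.894 to 2.98 and 2.61 to 3.46 CPM with Pax8 at 0, and squamous markers at 0.0366 to 1.55 and 0 to 0.899 CPM with Sprr3 at 0. Their part in the levels of the 10 genes was not tested.

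Genes that overlap a member could share its reads, since the strand setting of the counting is not given. Gm26973, antisense to Nkx2-1, had 112 to 278 reads per library and a log2 fold change of -0.06 (edgeR unadjusted p = 0.797). Gm36026, which meets the start of Krt8 on the opposite strand, had 5 to 23 reads, and the pseudogene Krt8-ps 3 to 17. Over Hmga2, 1700006J14Rik had 0 to 3 reads, and 9230105E05Rik and Mir763 had 0.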

How the data were processed

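RNA was extracted by the study from whole lung, poly(A) libraries were made with a strand-marking kit, and the labels' processing notes name STAR, DESeq2 and mm10 without versions. The authors deposited 1 table of raw read counts per gene. The counting tool and its strand setting are not given in the sources used here. Of its 54532 gene identifiers, 54495 are in GENCODE M21 (GRCm38), 53585 with the same coordinates.

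Counts were tested with edgeR 4.0.16 (R 4.3.3; robust quasi-likelihood, filterByExpr with a minimum count of 10, TMM). The alternatives were DESeq2 1.42.0, limma 3.58.1 with voom, other scalings and filters, a replicate block and leaving out each library. Levels per mouse, ratios and correlations used log2 CPM with a prior count of 2 and two-sided exact permutation tests. With 4 mice per group the smallest p is 0.0286. Replicates are separate mice. The scripts were tested on simulated data.

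The genes and lists were chosen with earlier results of these data known. The text names all 10 genes, the 2 genes of highest mean CPM in each list of related genes (apart from 1 gene that is not reported here), overlapping genes and the 3 most correlated genes of 4 members. Epcam, Esrp1, Grhl2, Ehf, Spint1, Elf5, Klf5, Spdef, Areg, Hnf4a, Gkn2, Vil1, Etv4, Kng2, Col2a1, Comp, Hapln1, Matn1, Acan, Cnmd, Col9a1, Pax8, Sprr3, Krt8-ps, Hmga1, Cldn5 and Sox18 were named after their values were seen. Promoters are from RefSeq (GRCm38.p6).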

Additional observations from a re-analysis of the deposited data

Results flagged for a closer look

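In groups of 4 mice, a highest or lowest value was marked when its gap to the nearest other mouse was a larger share of the group's range than Dixon's 95% critical value allows. This held for 13 of 88 groups. About 4.4 would be marked by chance if the groups were independent and normally distributed, but they share mice and some lists share genes. Control mouse 4 was high for Foxa2 at 130.3 CPM against 70.6 to 78.1 in the other controls (gap share 0.874), and for Cldn4 at 43.5 against 13.0 to 16.8 CPM (0.873). It was also high for Cldn4 relative to the epithelial genes (-1.998 against -2.86 to -2.79 on the log2 scale, 0.924) and for chondrocyte markers (2.43 against 1.16 to 1.25 CPM, 0.929). Of that chondrocyte sum Hapln1 gave 2.04 CPM and Matn1 0.319 CPM, while Comp had 1 read and Col2a1, Acan, Cnmd and Col9a1 had 0. Control mouse 1 was low for Sox2 relative to the epithelial genes (-2.002 against -1.26 to -1.16, 0.883).

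TTI-101 mouse 2 was high for Krt18 at 210.3 CPM against 106 to 119 in the other treated mice (0.879). It was high for the alveolar genes bound by Nkx2-1 (64096 against 36506 to 40216 summed CPM, 0.866), AT2 markers (59567 against 32828 to 35938, 0.884) and gastric and hindgut genes (305 against 131 to 148, 0.901). The same mouse was high for basal markers (25.6 against 2.43 to 4.18, 0.925), neuroendocrine markers (26.6 against 11.7 to 13.8, 0.862) and squamous markers (0.899 against 0 to 0.111, 0.877). TTI-101 mouse 3 was high for mesothelial markers other than Krt19 (281 against 148 to 156 summed CPM, 0.944).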

How the results depend on the processing

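The count of the 9 genes at an unadjusted p under 0.05 was 3, and 6 with DESeq2 and 5 without the filter, both with Hmga2 tested and among them, 0 to 5 when leaving out 1 library, and 5 without control mouse 4 and TTI-101 mouse 2 together, a choice made after seeing the data, as was leaving out libraries for the gene lists, the epithelial mean and the Hmga2 ratio. It was 0 without control mouse 4 and without TTI-101 mouse 1, 3 or 4, and 5 without control mouse 1 or TTI-101 mouse 2. Of all genes, 1.11% were lower at that threshold without control mouse 4, and 1.81, 1.39 and 2.10% without TTI-101 mouse 1, 3 and 4. That share was 6.60% without control mouse 1, 7.62% without TTI-101 mouse 2 and 6.56% without control mouse 4 and TTI-101 mouse 2 together. In all 8 mice it was 3.58% in edgeR, 2.69% in DESeq2, 2.96% in edgeR without the filter and 2.85% in limma-voom. By limma-voom 4 of the 9 genes were at that threshold. Over all genes the count at that threshold in either direction was 1132 of 17138, and 1849 of 31830 without the filter, 422 to 2498 when leaving out 1 library and 2106 without both mice. Calls at an adjusted p under 0.05 numbered 0 in edgeR, 4 in DESeq2 and 0 to 1 when leaving out 1 library. The log2 fold change of Krt19 ranged from -0.24 to 0.018, above 0 without control mouse 4 (0.018) and TTI-101 mouse 1 (0.011), its level per mouse from -0.26 to 0.0015, above 0 without TTI-101 mouse 1, and Foxa1 relative to epithelial genes from -0.023, without TTI-101 mouse 3, to 0.19. Relative to those genes Cldn4 ranged from -1.03 to -0.46, Sox9 from -1.10 to -0.33 and Nkx2-1 from 0.0083 to 0.24. When leaving out 1 library, Krt19 minus Krt8 ranged from 0.36 to 0.62, Cldn4 minus Krt8 from -0.80 to -0.28, Sox2 minus Nkx2-1 from -0.85 to -0.40, Sox9 minus Nkx2-1 from -1.33 to -0.34 and Foxa1 minus Foxa2 from -0.12 to 0.035, with 0.035 without control mouse 2 and 0.013 without control mouse 3. Correlated pairs numbered 13 without control mouse 4. The causes were not tested.

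To look for pairs, the mean of each group was subtracted from the log2 CPM of every gene that passed the filter. The deviations left, not the levels themselves, were then correlated between control and TTI-101 mice. For same-numbered mice r was 0.39, 0.08, 0.16 and 0.07. For mice of different number r was -0.42 to 0.17, highest for control mouse 4 with TTI-101 mouse 2. These values do not decide whether the numbers share an effect. The labels give a number but no pairing, so the main test did not use pairs. With the number as a replicate block, 1 of the 9 genes, Sox2, was at an unadjusted p under 0.05, where 3.59% of all genes were lower. Krt8 and Krt18 were then at 0.0746 and 0.0701 (edgeR unadjusted p). Depth limits Sox9 and Hmga2, at 4 to 81 and 2 to 24 reads per library.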

Other observations

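The families of these genes were described after their values were seen. Of 49 keratin genes counted, 13 were tested, and Krt8, Krt18 and Krt19 together made up 77.7 to 87.6% of the summed keratin level per kilobase in control and 73.9 to 80.8% in TTI-101 mice. Cldn4 made up 0.349 to 3.05% of the level of 23 claudins, and Sox2 with Sox9 made up 4.20 to 29.3% of that of 19 Sox genes, with control mouse 4 highest in both. Such shares also depend on the other genes of the family. The highest claudin, Cldn5, was at 125 CPM per kilobase in control mouse 4 and 246 to 581 elsewhere. Sox18, the highest Sox gene, was at 46.1 in that mouse and 69.7 to 162 elsewhere. Foxa1 and Foxa2 held 98.6 to 99.8% of the level of the 3 Foxa genes in every library. Hmga2 held 0.0665 to 1.10% of the level of Hmga1 and Hmga2, and Hmga1 had a log2 fold change of 0.05 (edgeR unadjusted p = 0.811).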
